A study of Mus musculus with 12 samples.

Results

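The glucose-6-phosphatase gene G6pc was followed in mouse liver with and without the histone deacetylase Hdac3 at postnatal day 17 (P17) and postnatal day 28 (P28). The probe was found by its accession, NM_008061.2, which is a RefSeq transcript of G6pc. It was 1 of 33012 probes in the deposited value table, and no other probe carried a G6pc accession. Of all probes, 311 could be given a gene symbol in this way, so most of the pathway around G6pc was not followed here.

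G6pc encodes the catalytic subunit of the enzyme, which removes the phosphate from glucose-6-phosphate in the endoplasmic reticulum, the last step by which the liver makes free glucose from glycogen and from gluconeogenesis. The G6pc transcript is abundant in hepatocytes and kidney tubule cells, is raised by glucagon and glucocorticoid, and is lowered by insulin. Hdac3 is the catalytic deacetylase of the NCoR and SMRT corepressor complexes, through which nuclear receptors repress transcription in liver.

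The groups were P17 Hdac3-null, P17 control, P28 Hdac3-null and P28 control livers, labelled as C57B/6 mice where a strain is given. RNA of 5 livers was combined in each pool. Each group held 2 pools and 3 arrays, because RNA of the first pool was measured on 2 arrays from different chip lots and that of the second pool on 1. Controls expressed Albumin-Cre, a recombinase under a promoter active in hepatocytes. They were wild-type for Hdac3 in both first pools, wild-type or heterozygous in the second P28 pool, and without a genotype of their own on the label of the second P17 pool, which the series design places among wild-type and heterozygous mice. The labels name no Cre for the Hdac3-null pools, and pooling hides the spread between mice. No probe could be matched to Hdac3 by symbol, so its loss was not checked on these arrays.

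Single-colour ABI1700 arrays were read by chemiluminescence from digoxigenin-labelled cRNA. The 12 arrays fall into 3 sets of 4 by their value distributions: the P17 first pools, the P28 first pools, and all second pools. They are called run sets below, a name for a shared distribution of values and not for a known array run. Null and control arrays of the same age and pool number therefore always lay in 1 set, whereas P28 and P17 shared a set only in the second pools. The scanner export attached to the second P28 null pool was a copy of the one attached to the P28 first pools, while its column of the value table had the distribution of the second pools. The column of the value table was used here, and differences that involve this pool are also given without it. The number of pools, 8 in all, limits the precision of every value. Whole-liver RNA cannot tell fewer cells of a type apart from less transcript per cell.

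The 250 bases before the G6pc start site are shown as background on what is known to read these hormonal signals at this gene; the arrays measured the transcript and not this sequence. The sequence is RefSeq's for build GRCm38.p6, chr11:101367466-101367715, plus strand. Capitals mark matches, on either strand, to any of the letters searched: TATAAA (the TATA box), TTACGTAA and TGACGTCA (forms of the cAMP response element), TGTTT (the core of forkhead sites), AGGTCA (the nuclear receptor half-site) and TGTTCT (the glucocorticoid receptor half-site).
G6pc upstream: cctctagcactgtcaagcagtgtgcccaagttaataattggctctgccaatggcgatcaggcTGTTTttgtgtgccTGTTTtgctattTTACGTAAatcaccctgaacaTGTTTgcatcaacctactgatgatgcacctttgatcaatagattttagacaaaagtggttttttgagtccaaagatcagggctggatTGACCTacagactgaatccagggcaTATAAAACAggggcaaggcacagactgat

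TTACGTAA occurred 162 bases before the start and was held by 0.0999% of 27025 promoters of the same length. TGTTT occurred 4 times, 3 on the plus strand between 188 and 141 bases before the start and 1 on the minus strand that overlaps TATAAA by 2 bases, and 46.8% of promoters held it. TATAAA lay 29 bases and AGGTCA, on the minus strand, 54 bases before the start, and 13.0% and 13.8% of promoters held them. TGACGTCA and TGTTCT had no match in this window and were held by 1.62% and 16.2%. A match describes letters and not a bound site.

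The largest G6pc difference between 2 groups of 1 age or genotype was that between ages in control liver, where the signal fell 6.69-fold by P28. In Hdac3-null liver it was 2.14-fold lower than in control at P17 and 1.86-fold higher than in control at P28, and neither of these differences passed the test over all probes. The 4 group means thus ran, from high to low, P17 control, P17 null, P28 null and P28 control.

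At P17 the normalized intensity of G6pc was 153886 and 196830 on the duplicate arrays of the first null pool and 224481 in the second null pool, against 363569 and 485817 on the duplicate arrays of the first control pool and 426670 in the second control pool. Every null array lay below every control array on this normalized scale. In the deposited values the second null pool (328641) read above technical replicate 1 of the first control pool (301845), an array of another set. At P28 the intensity was 120777 and 121296 on the duplicate arrays of the first null pool and 114540 in the second null pool, against 82640.3 and 67909.1 on the duplicates of the first control pool and 53556.3 in the second control pool. Here every null array lay above every control array. Over all probes, null and control pools did not overlap for 34.3% at P17 and 33.8% at P28.

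**Figure D1:**
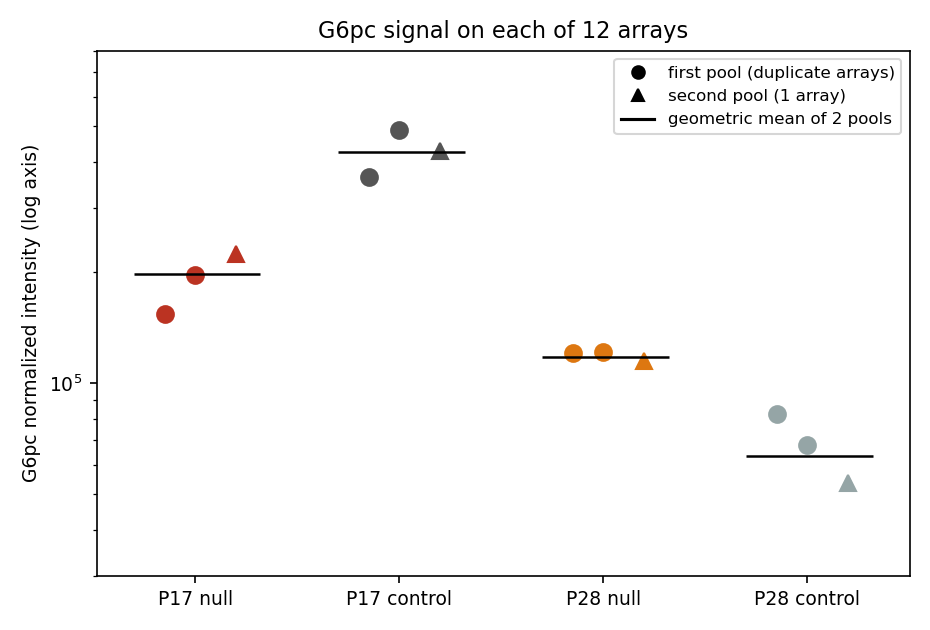
Normalized G6pc intensity (log axis) on each of 12 arrays in P17 null, P17 control, P28 null and P28 control liver; circles are the duplicate arrays of the first pool, triangles the second pool and lines the geometric mean of 2 pools. Null arrays lie below control arrays at P17 and above them at P28, and the lowest values, 53556.3 to 82640.3, are those of P28 control liver.

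The probe was bright on all arrays and had no empty reading. Between 97.3% and 98.4% of probes read at or below it on the null arrays, and between 95.3% and 99.4% on the control arrays; this is its place in each array's distribution, which does not rank transcripts by abundance. Duplicate arrays of a pool differed by 0.36 on the log2 scale in P17 null, 0.42 in P17 control, 0.01 in P28 null and 0.28 in P28 control liver. The 2 pools of a group differed by 0.37, 0.02, 0.08 and 0.48 in the same groups. Duplicates lay farther apart than pools in P17 control liver, and pools lay farther apart than duplicates in P28 null and P28 control liver.

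On the log2 scale G6pc averaged 17.59 ± 0.26 in P17 null and 18.69 ± 0.02 in P17 control liver, and 16.85 ± 0.06 in P28 null and 15.95 ± 0.34 in P28 control liver (SD, n = 2 pools per group). With the groups ordered by level, the nearest pools of neighbouring groups were 0.90 apart between P17 control and P17 null, 0.52 between P17 null and P28 null, and 0.61 between P28 null and P28 control. On this normalized scale no neighbouring groups overlapped, and each gap exceeded the distance between the pools within any group. In the deposited values the second P28 null pool (167639) read above both arrays of the first P17 null pool (123860 and 158179). Of 32120 probes with a value in every pool, 36 (0.112%) had the same order without overlap; this order was read from the G6pc values, so the share is a description.

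In Hdac3-null liver G6pc measured 117743 at P28, against 197657 at P17 (geometric means). The log2 difference was -0.75 (SE 0.35, 95% interval -1.56 to 0.06, limma adjusted p = 0.77), and the first pools differed by -0.52 and the second by -0.97. Without the second P28 null pool it was -0.71 (limma adjusted p = 0.75). P28 null and P17 null pools did not overlap on the normalized scale, which held for 34.1% of 32120 probes in this comparison and for 36.1% in control liver. Only 3 of 33011 probes (0.00909%) were called between ages in null liver. A total of 6409 probes (19.4%) differed more than G6pc. With the run set as a block the log2 difference in null liver was -0.99 (95% interval -1.86 to -0.11, limma adjusted p = 0.44). Whether the interval included 0 thus depended on the setting.

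In control liver the fall to 63341 at P28, against 423459 at P17 (geometric means of normalized intensity), was the change in G6pc that passed the test. The log2 difference was -2.74 (SE 0.35, 95% interval -3.55 to -1.93, limma adjusted p = 0.038, n = 2 pools per group). In limma 0.176% of 33011 probes were called in this comparison, 41 higher and 17 lower, and 129 probes (0.391%) had a larger difference than G6pc in either direction. The second pools, which share a run set, differed by -2.99, and the first pools, which do not, by -2.49. The call did not survive leaving out any 1 of the 8 pools (adjusted p = 0.089 to 0.32), the run set as a block (log2 -2.98, adjusted p = 0.21), scaling to the 75th percentile (adjusted p = 0.071), a fit of only the groups compared (0.23), technical replicate 1 alone for the first pools (0.11) or the deposited values without further normalization (log2 -2.80, SE 0.77). The direction was the same in each of these. With the deposited values the limma adjusted p was 0.9998. The call was kept under 8 of 13 other settings, among them those that count duplicate arrays of 1 RNA.

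Taken over both genotypes, G6pc averaged 16.40 ± 0.55 at P28 and 18.14 ± 0.65 at P17 (SD, n = 4 pools per age). All 4 P28 pools lay below all 4 P17 pools, as for 5.45% of probes in either direction. The log2 difference of -1.74 had p = 0.029 in a two-sided exact permutation test, which is the smallest p that 4 against 4 pools can give, and adjusted p = 0.059 in limma over all probes (SE 0.25; 0.17% of probes called). That permutation test exchanged all pools freely. With ages exchanged only among pools of the same number, the exact permutation p was 0.056, the smallest that 36 arrangements can give. Over 16505 brighter probes the differences between first and second pools correlated across groups (r = 0.57 to 0.69). For G6pc itself the second pool minus the first was 0.37 in P17 null, 0.02 in P17 control, -0.08 in P28 null and -0.48 in P28 control liver. Without the second P28 null pool the difference of means was -1.88 (exact permutation p = 0.057). With the deposited values as they stand the permutation p was 0.057, and the second P28 null pool then read above the first P17 null pool.

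At P17 Hdac3-null liver held 0.467 times the G6pc signal of control liver (95% interval 0.266 to 0.818). The log2 difference was -1.10 (SE 0.35, limma adjusted p = 0.84), with -1.27 in the first pools and -0.93 in the second. Before any further normalization, null was 2.44-fold and 2.57-fold lower than control on the arrays labelled technical replicate 1 and 2. It was 1.81-fold lower in the second pools. The technical replicates are duplicate arrays of the same first pools and not separate comparisons. Null and control pools did not overlap for 34.3% of probes at P17, and 0.0454% of 33011 probes were called. Of these probes 1633 (4.95%) had a larger difference than G6pc.

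At P28 Hdac3-null liver held 1.86 times the G6pc signal of control liver (95% interval 1.06 to 3.26). The log2 difference was 0.89 (SE 0.35, limma adjusted p = 0.47), with 0.69 in the first pools and 1.10 in the second. Without the second P28 null pool it was 0.93 (limma adjusted p = 0.65). In the deposited values null was 1.47-fold and 1.79-fold higher on the arrays labelled technical replicate 1 and 2 and 2.14-fold higher in the second pools. Null and control pools did not overlap for 33.8% of probes at P28, and 0.397% were called. A larger difference than that of G6pc was found for 5383 probes (16.3%). These intervals are for 1 comparison and are not widened for the number of probes; a design of 2 against 2 pools cannot give an exact permutation p below 0.333.

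**Figure D2:**
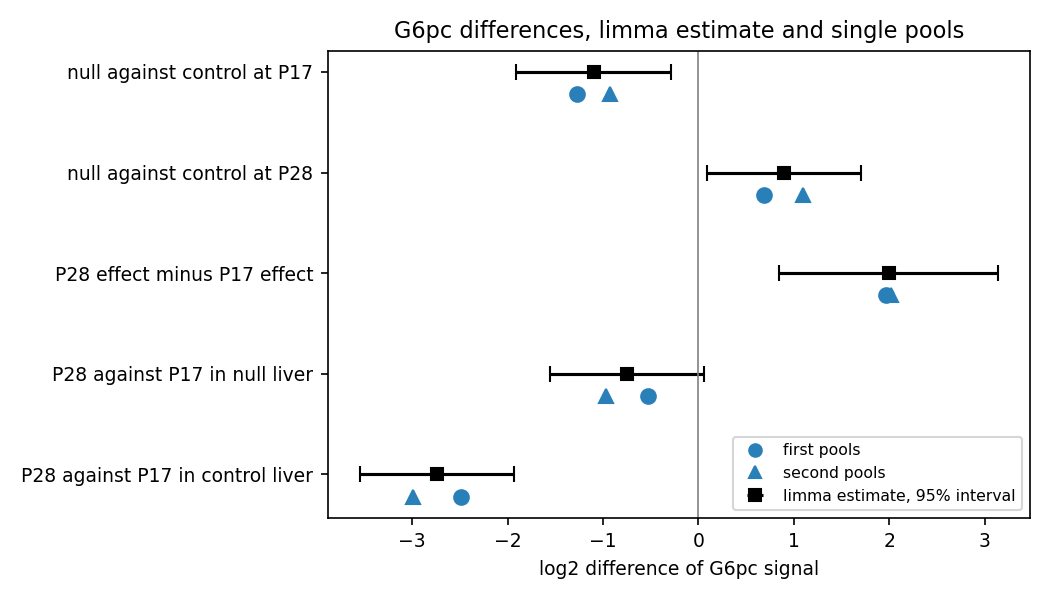
Log2 differences of G6pc signal (horizontal axis) for null against control at each age, for the P28 effect minus the P17 effect, and for P28 against P17 in null and control liver; squares with bars are limma estimates with 95% intervals, circles the first pools and triangles the second pools. The interval lies farthest from 0 for the age difference in control liver (-3.55 to -1.93) and includes 0 for that in null liver (-1.56 to 0.06).

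Null minus control for G6pc, called the effect here, was opposite in sign at P28 and P17, in both pools. The P28 effect minus the P17 effect was 1.99 on the log2 scale (SE 0.49, 95% interval 0.85 to 3.14), with 1.96 in the first pools and 2.02 in the second, and 2.03 without the second P28 null pool. It did not pass the test over all probes (limma adjusted p = 0.69; 0 of 33011 probes were called, and 1530 had an unadjusted p under 0.05). Null was lower in both pools at P17 and higher in both at P28 for 6.74% of probes. The same 1.99 is the amount by which the age difference in null liver was smaller than that in control liver, so these are 1 result and not 2. The P28 control pools enter both the age difference in control liver and the genotype difference at P28, and the P17 control pools enter the age difference and the genotype difference at P17.

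**Figure D3:**
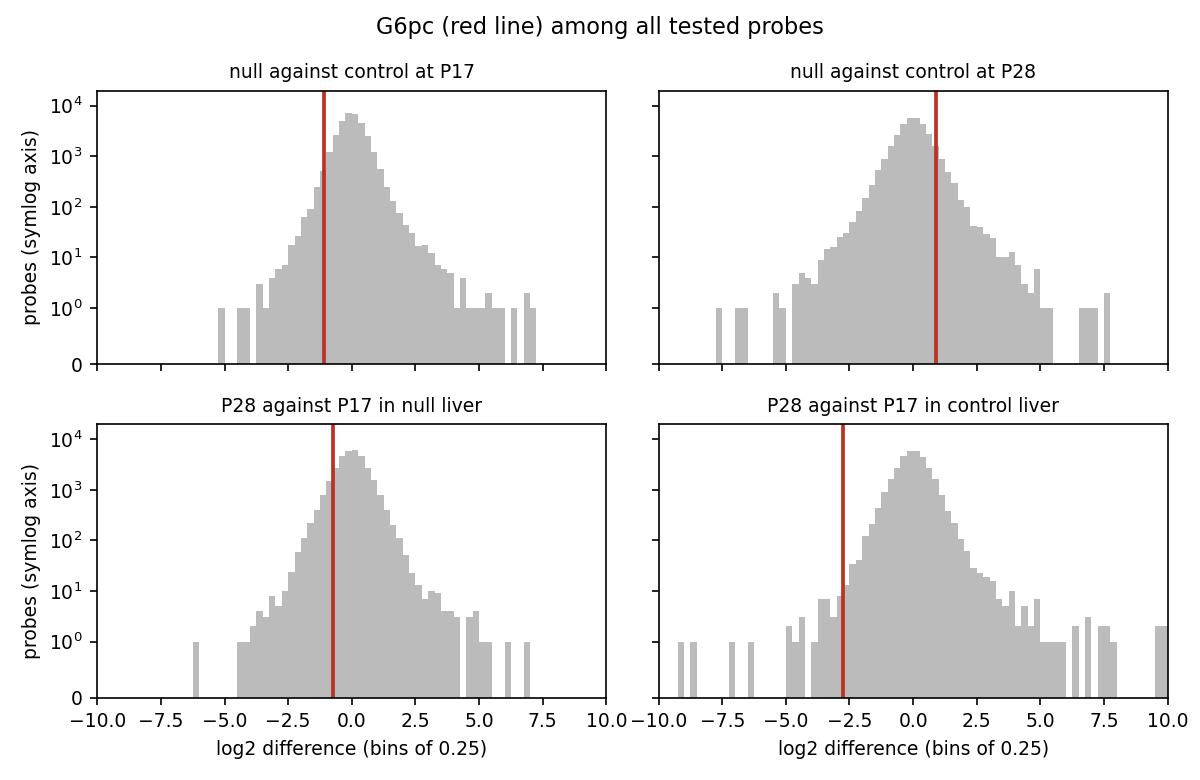
Number of probes (symmetric log axis) by log2 difference in bins of 0.25 for null against control at P17 and P28 and for P28 against P17 in null and control liver, with the G6pc value as a red line. G6pc lies toward the edge of the distribution for the age difference in control liver, where 0.391% of probes differed more, and well inside it for null against control at P28, where 16.3% did.

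Other genes of glucose production could be followed in few cases. Of 65 listed genes of glucose-6-phosphate metabolism, gluconeogenesis, glycogen and hormone response, 3 had a probe with a symbol: G6pc, Cebpb and Fgf21. None of the 9 gluconeogenesis genes and none of the 15 genes of glucose and glycogen handling did, so a joint movement of the pathway was not measured here. Besides the fall of G6pc with age in control liver, no measured member was called in any comparison.

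Cebpb, a transcription factor that binds the G6pc promoter and responds to glucagon and glucocorticoid, had 2 probes. Null minus control was 0.33 at P17 and 0.35 at P28 for the brighter probe (SE 0.38 each), which differed by -0.10 with age in null and -0.12 in control liver. For the other probe it was 0.30 at P17 and 0.52 at P28 (SE 0.50 each). With age this other probe differed by -0.16 in null and -0.38 in control liver (SE 0.50 each). Binding and protein were not measured, and the part of Cebpb in the G6pc differences was not tested. Fgf21, a hepatic hormone of fasting, showed null minus control of 0.71 at P17 and of 1.68 at P28 (SE 0.67 each, limma adjusted p = 1.00 and 0.49). Its age difference was 1.35 in null and 0.39 in control liver (SE 0.67 each). The first and second control pools measured 11.71 and 9.63 at P28, against 10.49 and 10.07 at P17 (log2). The age difference in control liver thus changed sign between pools.

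The probes whose levels ran most like G6pc were sought among 16461 probes brighter than the median, by Pearson r over the 8 pools, which share run sets and groups. The median r was 0.06, and 13 probes (0.0790%) reached 0.95, none with a symbol. The highest was mCG11084.2 (r = 0.99), an identifier with no gene name in the tables used. It measured 15.98 ± 0.56 in P17 null and 19.01 ± 0.39 in P17 control liver, and 14.75 ± 0.38 in P28 null and 12.68 ± 0.16 in P28 control liver (log2, SD, n = 2 pools). It fell by 6.33 with age in control liver (limma adjusted p = 0.0023, and 0.14 when the run set was blocked), called in 12 of 13 other settings. It has the group order of G6pc over a wider range. The probe was chosen by its r to G6pc over these pools, so this fall and order follow in part from that choice. The lowest was mCG1028439 (r = -0.99), at 13.39 ± 0.16 and 12.18 ± 0.09 in P17 null and control liver and 13.76 ± 0.02 and 14.86 ± 0.26 in P28 null and control liver.

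Among 166 such probes with a symbol, the most similar was Lst1, a leukocyte transcript (r = 0.87, 122nd of all probes). It was at 11.72 ± 0.18 in P17 null and 11.82 ± 0.11 in P17 control liver, and at 11.45 ± 0.05 in P28 null and 10.23 ± 0.17 in P28 control liver, so that it shared with G6pc the low value in P28 controls and not the P17 genotype difference. Nt5m, a mitochondrial deoxyribonucleotidase, followed with r = 0.83, then the epithelial keratin Krt23 with 0.81, and Obox1, an oocyte-specific homeobox gene, and Nupr1l with 0.80 each. None of these 5 was called in any comparison.

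At the other end were Mup1 (r = -0.92), a major urinary protein gene of maturing hepatocytes, and Nat8f2 (r = -0.95), of an N-acetyltransferase family. Mup1 differed between null and control by 2.34 at P17 (SE 0.49, limma adjusted p = 0.29) and by -0.20 at P28. It rose by 7.60 with age in control liver (limma adjusted p = 0.0022, and 0.17 when the run set was blocked), called in 12 of 13 other settings. For Nat8f2 null minus control was 0.91 at P17 and -0.54 at P28, the reverse of the G6pc signs, and its age difference in control liver 1.70 (limma adjusted p = 0.23). Mup1 and Nat8f2 are named here for their r over these pools, so their age differences and signs follow in part from that choice. Mup1 belongs to a family of near-identical genes, so its probe may read several of them.

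**Figure D4:**
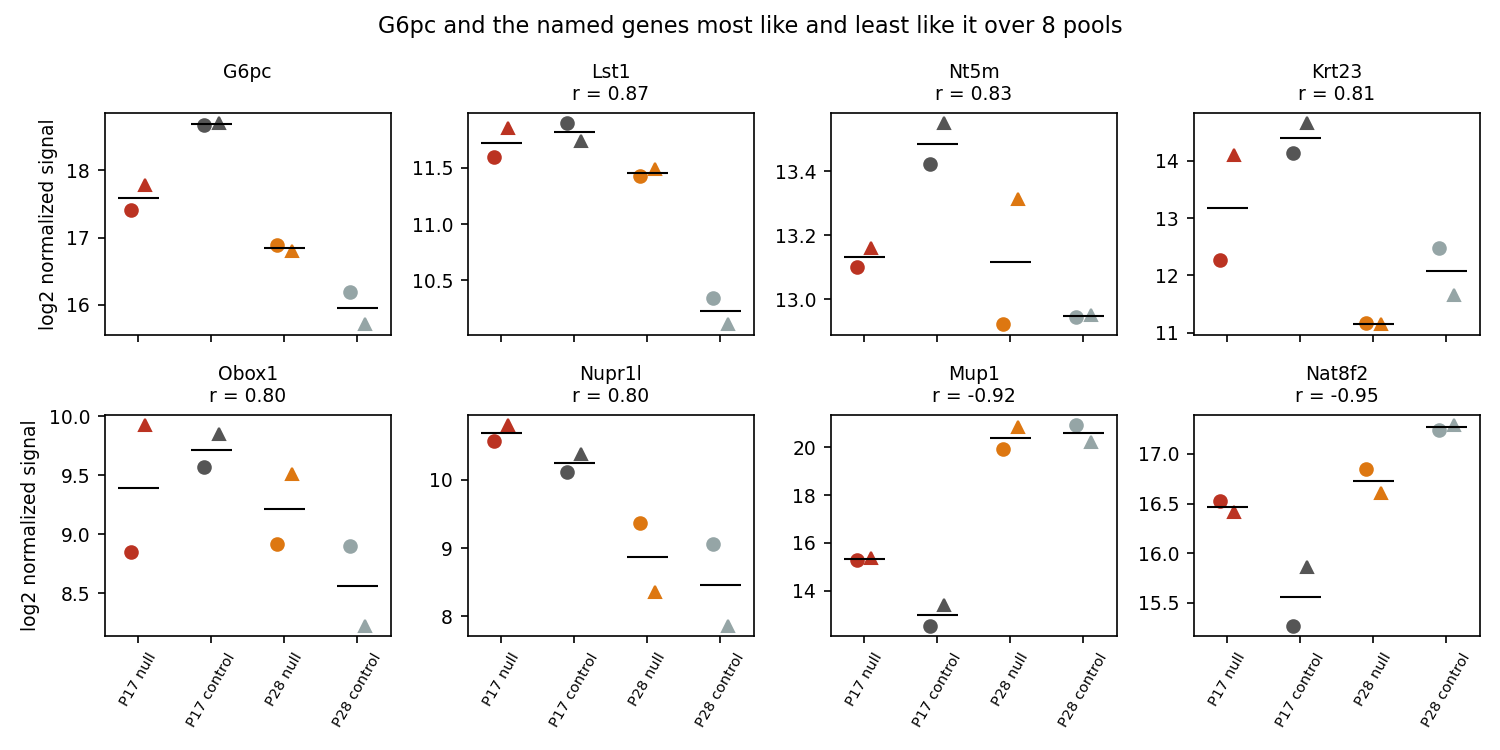
Log2 normalized signal in 8 pools for G6pc, the 5 named genes with the highest and the 2 with the lowest Pearson r to it; circles are first pools, triangles second pools and lines group means, on a separate vertical scale in each panel. Lst1 shares the low P28 control value, Krt23 the lower values at P28, and Mup1 and Nat8f2 run the opposite way.

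Markers of the cell types a liver sample can hold were read beside these results. Of 40 listed markers 6 had a symbol: Mup1 for hepatocytes, Krt23 and Wfdc2 for cholangiocytes and progenitors, Lst1 and Ear1 for macrophages and leukocytes, and Hba-a1 for red cells. Albumin and the other 6 hepatocyte markers were not named here, and neither was any endothelial, stellate, fetal liver or kidney marker. The summed Lst1 and Ear1 intensity was 8467 to 11720 in P17 null and 9593 to 10605 in P17 control liver, and 7756 to 12548 in P28 null and 2249 to 4043 in P28 control liver. The summed Krt23 and Wfdc2 intensity was 7799 to 22670 in P17 null and 20907 to 29682 in P17 control liver, and 15436 to 21374 in P28 null and 5079 to 6311 in P28 control liver. Both sums were lowest in P28 control liver, where G6pc was lowest. Within the second sum the 2 genes differed in direction at P28. Wfdc2, a secreted protein of epithelial cells, measured 14.22 and 13.69 in the P28 null pools, against 9.23 and 10.85 in the P28 control pools (log2), and was the only listed marker called for genotype. Its log2 difference was 3.91 (SE 0.58, limma adjusted p = 0.049), and 0.17 at P17. The call was lost with any 1 pool left out (3.10 to 4.72, adjusted p = 0.092 to 0.21) and was kept under 6 of 13 other settings (adjusted p = 0.00073 to 0.49 over all 13), with the same direction in each. Krt23 measured 11.17 and 11.15 in the P28 null pools, against 12.48 and 11.66 in the P28 control pools (log2), a difference of -0.91 (SE 0.61, limma adjusted p = 0.76), and -1.21 at P17. The part of these markers in the G6pc differences was not tested. Null minus control for Hba-a1 was 0.12 at P17 and 0.13 at P28 (SE 0.34 each), and its age difference -0.39 in null and -0.40 in control liver.

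The direction of each G6pc difference was the same under every alternative tried. For some alternatives this was fixed in advance. The filter on bright probes, the moderation, the fit of only the groups compared and the block by pool number cannot move the estimate. Leaving out a pool of a group not compared cannot move it either. Over 13 other ways of processing, null minus control ranged from -1.16 to -1.08 at P17 and from 0.82 to 0.97 at P28, and P28 minus P17 from -0.99 to -0.66 in null and from -2.98 to -2.57 in control liver. Leaving out 1 pool at a time moved the genotype difference to between -1.28 and -0.92 at P17 and to between 0.65 and 1.14 at P28.

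**Figure D5:**
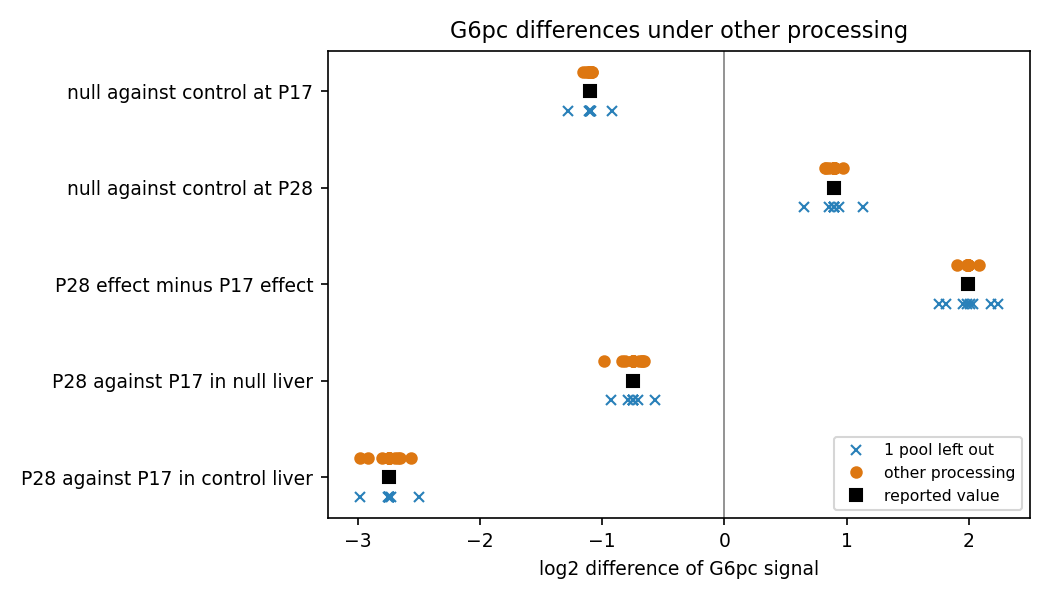
Log2 differences of G6pc signal (horizontal axis) as reported (squares), under other processing (circles) and with 1 pool left out (crosses), for null against control at each age, for the P28 effect minus the P17 effect, and for P28 against P17 in null and control liver. No point crosses 0. With a pool left out the values run from 0.65 to 1.14 for null against control at P28, from 1.75 to 2.24 for the difference between ages and from -2.98 to -2.50 for the age difference in control liver.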

How the data were processed

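The deposited value table holds intensity on a linear scale, and its columns are named by sample. The authors' values share 1 distribution within each of 3 sets of 4 arrays, as read from the file; for the software and any background step, the sources used here name none. No use was made of 52 scanner columns of per-sample values, which carry no sample name; 1 scanner export is a copy of another pool's. Their accession column named the probes: 517 of 33012 carried a RefSeq accession and 311 matched a symbol in RefSeq's table for GRCm38.p6. Of 396144 values 2867 were empty, none of them for G6pc.

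All 12 arrays were quantile-normalized together. Values under the 5th percentile (174.7) were set to it, log2 was taken, and arrays of 1 pool were averaged. The 8 pools of 4 groups were fitted in limma 3.58.1 under R 4.3.3 with lmFit and eBayes, which left 4 residual degrees of freedom, and 33011 probes were tested with Benjamini-Hochberg adjustment at 0.05. The fit was also run on simulated pools with independent errors. These lack the shared run sets of the real pools, so that run cannot give the error rate in these data. Permutation tests used scipy 1.17.1. The spread behind a limma p-value is that between the 2 pools of a group, each of 5 mice. It is shared over the 4 groups and moderated over all probes. A permutation p rests on exchanging the 8 pool values.

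Pairing by pool number was checked on 16505 probes brighter than the median: differences between first and second pools correlated with r = 0.57 to 0.69 in 6 pairs of groups, and a replicate block by pool was fitted as an alternative. Exchange of ages within pool number, and the settings carried through for Wfdc2, Mup1 and mCG11084.2, were added after seeing the data. Members and gene lists were chosen with earlier results of these data known. Named genes were G6pc, listed genes with a symbol, and the 5 most and 2 least similar by r. Alternatives changed the normalization, background, floor, filter, moderation, samples, blocks and averaging.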

Additional observations from a re-analysis of the deposited data

Results flagged for a closer look

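Null minus control for G6pc had opposite signs at the 2 ages. It was 0.69 and 1.10 in the P28 pools and -1.27 and -0.93 in the P17 pools, a difference of 1.99 (log2, SE 0.49). The test of this difference did not pass over all probes (limma adjusted p = 0.69, and 0.052 to 1.00 over 12 alternatives), and 6.74% of probes had the same pattern of signs.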

How the results depend on the processing

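The fall of G6pc with age in control liver (-2.74, log2) was no longer called with the deposited values (-2.80), scaling to the 75th percentile (-2.67), only the groups compared (-2.74), the run set as a block (-2.98), the first pools from technical replicate 1 alone (-2.57) or any 1 pool left out (-2.98 to -2.50). The replicate block by pool kept it (-2.74, adjusted p = 0.048) and changed no other G6pc call. Over both genotypes (-1.74, not called) it was called with an offset in place of the floor (-1.74), probes above the median (-1.74), eBayes with trend and robust (-1.74), the replicate block by labelled number (-1.66) and the pool as a random block (-1.70). Its permutation p passed 0.05 in no set of 7 pools (-1.99 to -1.51), where 0.057 is the smallest possible, nor with the deposited values (-1.80), nor with ages exchanged within pool number as a replicate block (-1.74, p = 0.056, added after seeing the data). With 7 pools, or with ages exchanged within pool number (smallest possible p 0.056), the permutation test could not pass 0.05. The cause of the other losses was not tested. The genotype differences and their difference between ages kept their direction and were called under no alternative.

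Counts of called probes are given for null against control at P17 and at P28, for the difference between these, and for P28 against P17 in null, in control and over both. They were 15, 131, 0, 3, 58 and 56 as reported, and 2, 13, 0, 2, 22 and 23 with the deposited values. An offset gave 16, 165, 3, 13, 65 and 78, probes above the median 16, 201, 0, 2, 63 and 125, and trend and robust 126, 411, 39, 122, 149 and 265. Only the groups compared gave 0, 0, 0 and 10 without the comparisons that need all groups. The replicate block by pool gave 5, 246, 2, 2, 66 and 105, the run set as a block 0, 5, 0, 0, 2 and 0, the replicate block by labelled number 392, 1614, 216, 561, 621 and 1396, and the pool as a random block 199, 599, 73, 181, 217 and 385. Both of the last settings count duplicate arrays of 1 RNA. Technical replicate 1 alone gave 10, 65, 0, 2, 49 and 42, and replicate 2 alone 9, 79, 0, 2, 47 and 49. With 1 pool left out the counts ran from 0 to 5, 0 to 28, 0 to 0, 0 to 1, 13 to 40 and 14 to 26. The number of pools limits all of these.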
